A study of Mus musculus with 20 samples.

Results

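Transcripts of 10 genes that are widely used to mark cancer-associated fibroblasts were followed through 20 LLC1 tumors: Pdgfra, Pdgfrb, Thy1, Fap, Dcn, Lum, Pdpn, Acta2, Tagln and Postn. The genes were chosen by name, with earlier results of these data known. They are 10 of 35226 genes in the count table and 10 of the 16665 genes that had enough reads to be tested. LLC1 is a mouse Lewis lung carcinoma line, which was injected with Matrigel under the skin of the right flank of male C57BL6/J mice, the strain the line came from, so that the supporting tissue of each tumor is that of the host. The 4 groups of 5 tumors came from mice given vehicle, cisplatin (a platinum drug that crosslinks DNA), KW6002 (an antagonist of adenosine receptors, also named istradefylline), or both drugs (cotreatment). The labels name no transgene or deletion, and the label of vehicle replicate 1 is shorter than those of the other 4. Nothing in the labels says which animal gave which tumor, so P values measure the spread between the 5 samples of a group.

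Fibroblasts make and remodel the extracellular matrix, and those inside a tumor take on several states. Receptors for platelet-derived growth factor (Pdgfra and Pdgfrb) carry growth and migration signals, Pdgfrb also being a classical receptor of pericytes, the mural cells of small vessels. Fap is a membrane protease, Thy1 and Pdpn are surface glycoproteins, and Dcn, Lum and Postn encode secreted matrix proteins. Acta2 and Tagln encode parts of the contractile apparatus of myofibroblasts, which smooth muscle and mural cells also carry. None of the 10 genes belongs to fibroblasts alone, and in RNA from a whole tumor fewer cells of a type cannot be told apart from less RNA per cell.

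Library depth ran from 28.4 to 40.97 M reads, and counts per tumor went from 109 for Tagln in 1 cotreated tumor to 62711 for Dcn in another. Levels are given as CPM, the reads of a gene for each 1 M reads of the scaled library, and as mean ± SD of 5 tumors. Library codes fell into an earlier run (8 tumors) and a later run (12 tumors), each with tumors of all 4 groups; what the codes stand for is not given in the labels. To set genes beside each other, CPM was divided by exon length in kb. On that scale vehicle tumors held most Lum (369 ± 49.6 CPM per kb) and Dcn (222 ± 24.3), both small proteoglycans that bind collagen. Pdgfra followed at 28.5 ± 2.23 CPM per kb, then Acta2 at 16.2 ± 4.20, Pdpn at 12.9 ± 3.77, Postn at 10.8 ± 2.66 and Thy1 at 7.46 ± 0.994. Pdgfrb (4.38 ± 0.802), Fap (3.32 ± 0.669) and Tagln (3.21 ± 0.723) were the lowest. The neighboring values of Acta2 and Pdpn, Pdpn and Postn, and Fap and Tagln differed by less than their SDs. Cotreated tumors had the same leading pair in the other order, with Dcn at 262 ± 23.8 and Lum at 246 ± 38.6 CPM per kb, again within their SDs.

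The label fibroblast was checked against other genes of these cells. Of 24 other fibroblast genes, 23 were in the table and all 23 were tested, and all 10 fibrillar and type VI collagen genes were tested too. The 2 chains of type I collagen, a main product of fibroblasts, were low beside type III. Per kb of exon, vehicle tumors held 24.4 ± 8.52 CPM of Col1a1 and 18.9 ± 5.32 of Col1a2 against 881 ± 109 of Col3a1, genes picked here after their values were seen. Lum and Pdgfra, among the members with the highest levels, had negative median correlations with the other fibroblast genes from tumor to tumor, as shown further on. LLC1 cells grown without a host were not analysed here, so transcripts of the tumor cells and of host fibroblasts cannot be told apart, and the members are called by their gene names. Markers of other sources were present at different levels. Skin epidermis was near absent, with 1 of 8 markers tested and summed levels of at most 2.39 CPM, and Krt5, Krt14 and Trp63 did not pass the filter on low counts.

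**Figure D1:**
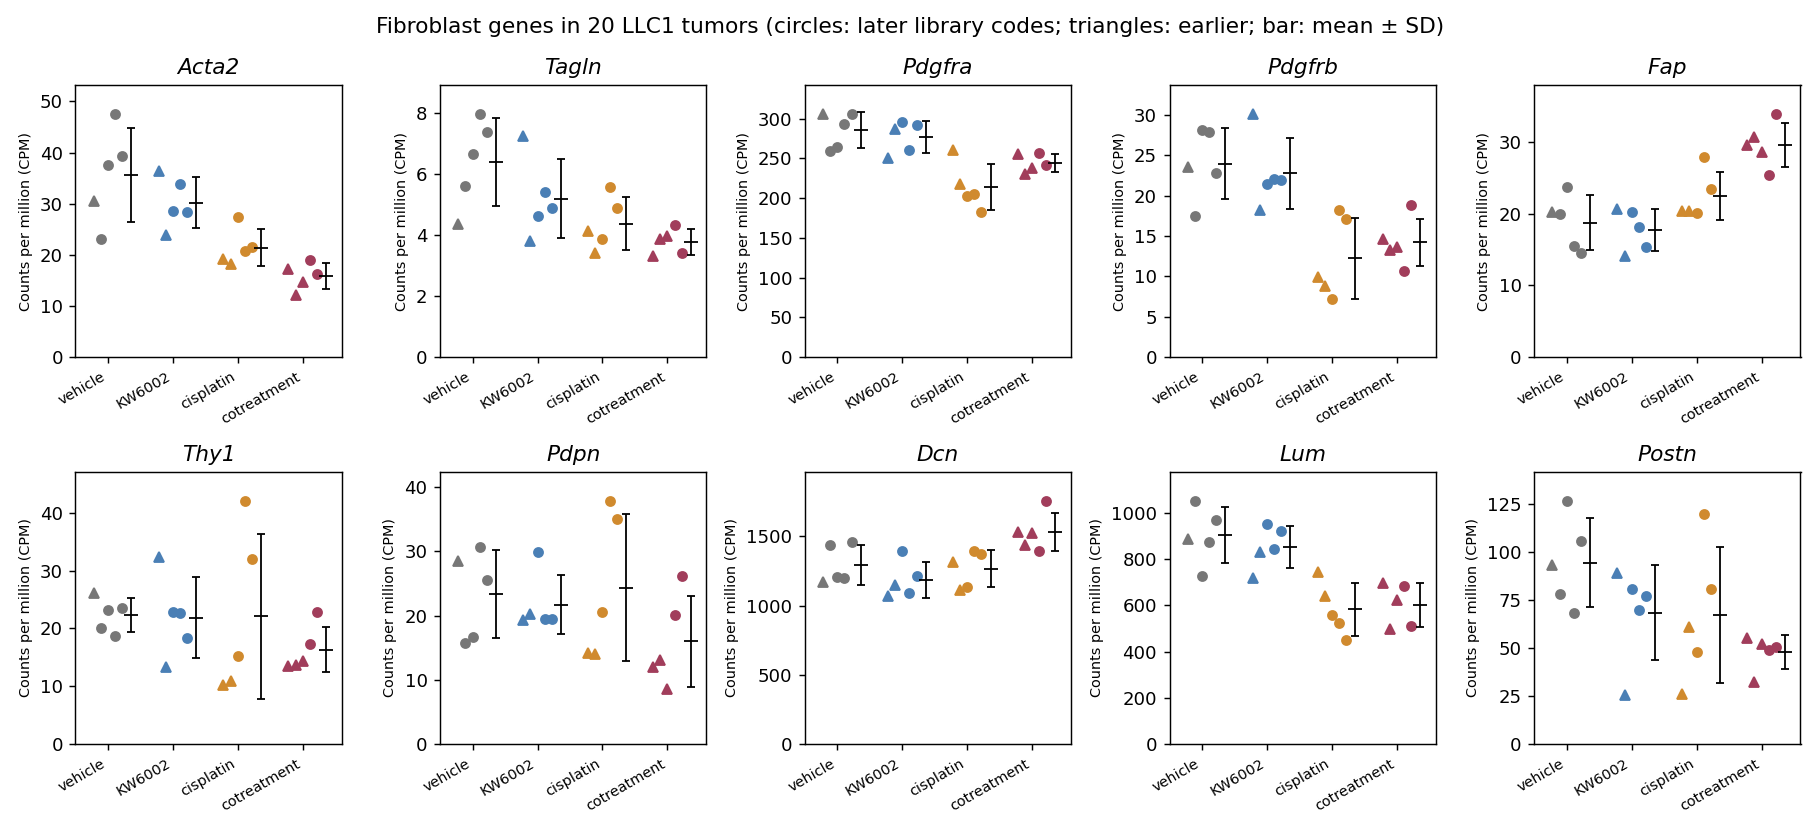
Level of each of the 10 genes in CPM (vertical axes, from 0) in the 5 tumors of each group, with the mean ± SD at the right of each group; triangles mark tumors with earlier library codes. Acta2 ran from 23.1 to 47.5 CPM in vehicle and from 12.1 to 19.0 in cotreated tumors, while Fap was higher in all cotreated than in all vehicle tumors.

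After cisplatin alone, 5 of the 10 genes fell and none rose, and after cotreatment 5 fell and Fap rose. A gene was called changed at a Benjamini-Hochberg adjusted P value under 0.05 over all genes tested and an absolute log2 fold change of at least 0.32, by the quasi-likelihood test of edgeR. In cisplatin against vehicle, Pdgfra, Pdgfrb, Lum, Acta2 and Tagln were lower, 5 of 10 genes where 10.6% of all tested genes were called with 6.01% higher and 4.57% lower. The median log2 fold change of the 10 was -0.46, against 0.00041 over all genes tested. In no member did the cisplatin and vehicle ranges stay apart, as they did in 10.4% of all genes. In cotreatment against vehicle, 23.5% of all genes were called (13.1% higher, 10.4% lower), and among the members Pdgfrb, Lum, Acta2, Tagln and Postn fell. The median of the members was -0.57, that of all genes -0.016. Groups did not overlap in 6 members (Pdgfra, Fap, Lum, Acta2, Tagln and Postn), beside 24.7% of all genes. Both comparisons use the same 5 vehicle tumors.

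Between KW6002 and vehicle no difference was detectable in the 10 genes. None was called in edgeR, none had an unadjusted P under 0.05, and DESeq2 called none either, in a comparison where 0% of all genes were called (339 genes had an unadjusted P under 0.05). All 10 log2 fold changes were below 0, from -0.029 for Thy1 to -0.46 for Postn, with 95% intervals that all held 0 (for Postn -1.20 to 0.27). Cotreatment against KW6002 called 6 members (23.3% of all genes, 12.6% higher and 10.7% lower), Fap and Dcn higher and Pdgfrb, Lum, Acta2 and Tagln lower, and Fap, Dcn, Lum and Acta2 did not overlap (24.9% of all genes). Cotreatment against cisplatin called none of the 10 in edgeR (4.0% of all genes), 4 with an unadjusted P under 0.05 (3883 of all 16665 genes), and 1 (Fap) in DESeq2. Dcn was the 1 member whose groups stayed apart there (4.83% of all genes). The interaction, which asks whether KW6002 acted differently in tumors given cisplatin and in those not, passed the test in none (0.066% of all genes), with unadjusted P under 0.05 in 3 members (2034 of all 16665 genes) and none called in DESeq2.

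**Figure D2:**
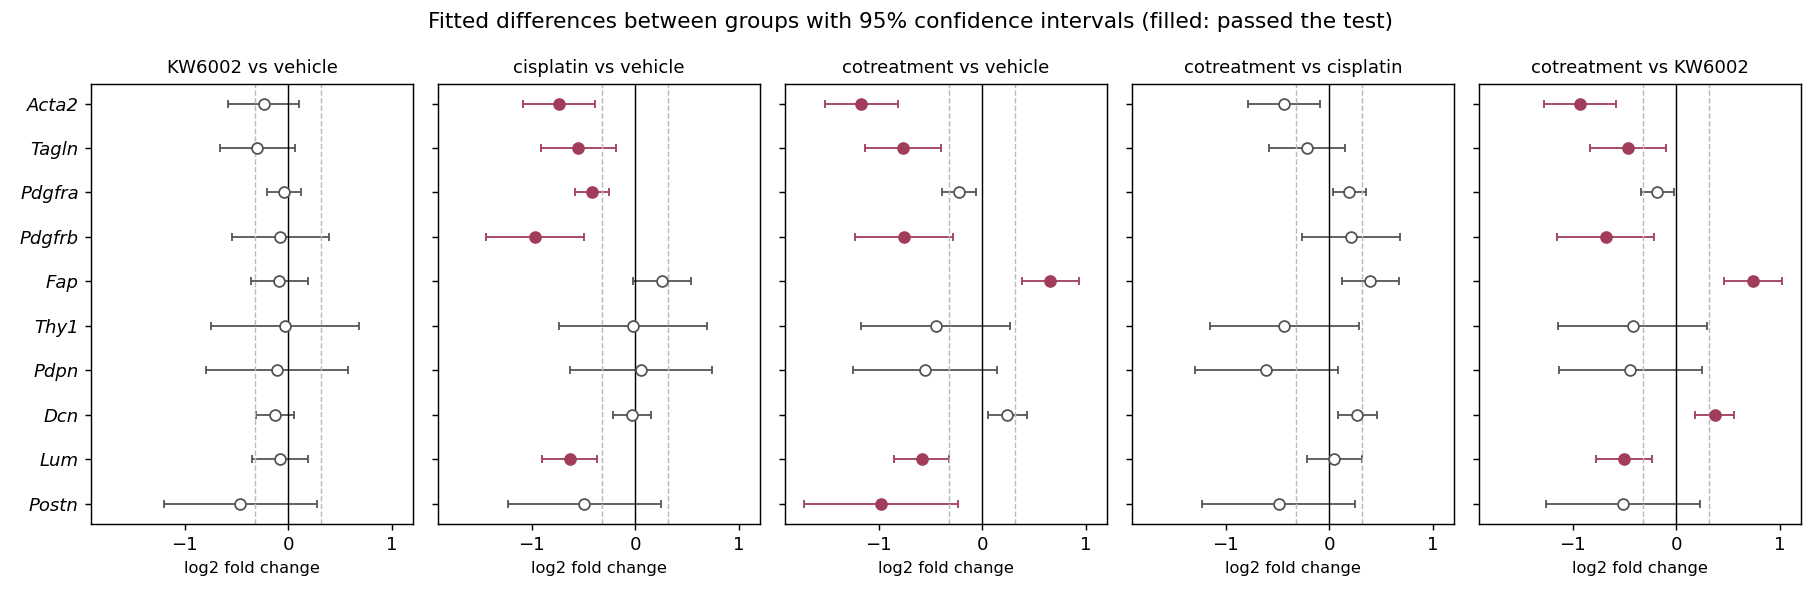
Fitted log2 fold changes of the 10 genes (points) with 95% confidence intervals (bars) in 5 comparisons, 1 per panel; filled red points passed the test and dashed lines mark the fold limit of 0.32. Acta2 lay furthest below 0 after cotreatment (-1.17) and Fap furthest above (0.66), and no point is filled in the panels of KW6002 against vehicle and of cotreatment against cisplatin.

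Acta2, the smooth muscle actin that defines myofibroblasts (ENSMUSG00000035783, chromosome 19, 34241090 to 34255590, - strand), fell most after cotreatment. Vehicle tumors 1 to 5 held 30.6, 23.1, 37.6, 47.5 and 39.2 CPM, and KW6002 tumors 36.3, 23.9, 28.5, 33.9 and 28.3. Cisplatin tumors held 19.1, 18.2, 27.5, 20.8 and 21.6 CPM and cotreated tumors 17.2, 12.1, 14.7, 19.0 and 16.3. All 5 cotreated tumors lay below all vehicle and all KW6002 tumors, whereas cisplatin replicate 3 reached into the vehicle range. The mean went from 35.6 ± 9.23 CPM in vehicle to 21.4 ± 3.62 after cisplatin (log2 fold change -0.73 ± 0.17 SE, adjusted P = 0.00519) and 15.9 ± 2.60 after cotreatment (log2 fold change -1.17 ± 0.17 SE, adjusted P = 3.00e-05). Against cisplatin the cotreated level was lower by a fitted -0.43 (95% interval -0.78 to -0.085), with adjusted P = 0.125. That difference passed the test with a replicate block, as given below under the processing. In the later code run alone (4 vehicle, 3 cisplatin and 2 cotreated tumors), the values were -0.64 after cisplatin and -1.04 after cotreatment, both past the test. Acta2 shares long stretches with the other actin genes, and only uniquely aligned reads were counted, so its level is uncertain to that extent.

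Tagln, the actin-binding protein transgelin (ENSMUSG00000032085, chromosome 9, 45929619 to 45936058, - strand), was the least abundant member by reads. It stood at 4.35, 5.59, 6.66, 7.95 and 7.37 CPM in vehicle tumors and 7.24, 3.80, 4.62, 5.41 and 4.88 in KW6002 tumors. After cisplatin the tumors held 4.13, 3.40, 3.87, 5.58 and 4.88 CPM, and after cotreatment 3.30, 3.86, 3.96, 4.32 and 3.40. Vehicle replicate 1, the lowest of its group, was just above the highest cotreated tumor, so those groups did not overlap. Its fall was -0.55 after cisplatin (adjusted P = 0.0365) and -0.76 after cotreatment (adjusted P = 0.00196). The cisplatin call was lost in 6 of 20 fits that left out 1 tumor (vehicle 3, 4 or 5, cisplatin 1, 2 or 3). The call against KW6002 was lost in 14 of 20 such fits, with no filter on low counts and with the code run as a term. The antisense gene Gm48529 covers 62.4% of the 1988 exon bases of Tagln, and Pcsk7 on the same opposite strand covers 5.43%. The libraries keep strand but the counting option is not stated. Gm48529 had a mean of 3.13 CPM and moved the other way after cotreatment, by 0.50 (adjusted P = 0.00365).

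Other genes of the contractile program were read beside this pair. Of 16 such genes 14 were tested, Cnn1 and Myocd staying under the filter. After cisplatin 3 fell and none rose (10.6% of all genes called), after cotreatment 6 fell and 1 rose (23.5%), and the median log2 fold changes were -0.14 and -0.13. Cnn2 (calponin 2) went from 258 ± 19.2 CPM in vehicle to 149 ± 20.01 in cotreated tumors (-0.79, adjusted P = 2.09e-06). Actg2, the enteric smooth muscle actin, fell after cotreatment (-2.18, adjusted P = 7.18e-06), at a low level, from a mean of 1.05 to 0.23 CPM. Synpo2, a protein of the sarcomere Z-disk and of actin bundles, rose (0.65, adjusted P = 0.00237). Myl9, a light chain of myosin, and Srf, the serum response factor that drives many genes of this kind, also fell (-0.89, adjusted P = 0.000475 for Myl9 and -0.69, adjusted P = 0.000276 for Srf), as did Tpm1 and Myh11, all 4 named after their values were seen. Cotreatment called Cnn2 and Srf lower than cisplatin alone too (-0.54, adjusted P = 0.00262 for Cnn2 and -0.44, adjusted P = 0.0424 for Srf) and Synpo2 higher (0.69, adjusted P = 0.0113).

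Serum response factor binds a sequence known as the CArG box, and the letters of that motif were looked up upstream of the members and the other contractile genes. RefSeq promoters (GRCm38.p6) were found for 4 of the members, Pdgfra, Pdpn, Acta2 and Postn, and the 250 bases before each start were searched. The motif reads the same on both strands. None of the 4 members held an exact match. Allowing at most 1 base other than A or T among its 6 middle bases, Acta2 was the 1 member of the 4 with a match, and it had 2. Among all 32851 promoters 8.59% held such a match and 1.47% an exact one. Exact matches are shown for Myl9, Cnn2 and Srf, the 3 of 13 other contractile genes with a promoter in the table that had one, and Tpm1, which also fell, had none. Matches with 1 such base are not counted here for those 13 genes, so they and the members were held to unlike limits. Myl9 also had a match of that kind, 99 bases before its start, which is not shown. Each line gives 30 bases 5′ to 3′ along the gene, with the 10 bases of the motif in capitals, and the distances from the first motif base to the RefSeq start were 84 and 34 bases for Acta2, 161 for Myl9, 56 for Cnn2, and 82 and 62 for Srf.
Acta2, first match, chr19:34255438-34255467, - strand: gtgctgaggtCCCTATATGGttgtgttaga
Acta2, second match, chr19:34255388-34255417, - strand: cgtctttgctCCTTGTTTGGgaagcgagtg
Myl9, chr2:156775293-156775322, + strand: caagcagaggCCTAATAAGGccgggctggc
Cnn2, chr10:79988534-79988563, + strand: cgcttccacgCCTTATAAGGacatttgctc
Srf, first match, chr17:46556225-46556254, - strand: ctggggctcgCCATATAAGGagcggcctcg
Srf, second match, chr17:46556205-46556234, - strand: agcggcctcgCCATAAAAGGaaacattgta
Both Acta2 windows carry 1 base outside A and T in the middle of the motif, and both lie inside the first exon that GENCODE gives Acta2, whose start is further upstream than that of RefSeq. The other windows overlap no annotated exon. A match describes letters and no binding was measured in these tumors.

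The 2 receptors for platelet-derived growth factor both fell after cisplatin, and they differed in spread. Pdgfra (ENSMUSG00000029231, chromosome 5, 75152292 to 75198215, + strand), the receptor of most tissue fibroblasts, had the smallest SD within groups of the 10 members (0.13 on the log2 scale). Vehicle tumors held 305, 259, 265, 293 and 306 CPM and KW6002 tumors 250.2, 287, 295, 260.3 and 293. Cisplatin tumors held 259.9, 218, 203, 205 and 182 CPM and cotreated tumors 256, 230.2, 237, 256 and 242. The cisplatin group was the lowest, with 4 of its 5 tumors below every cotreated tumor. Pdgfra fell after cisplatin (log2 fold change -0.42 ± 0.078 SE, adjusted P = 0.00108). After cotreatment its groups were apart from vehicle and its adjusted P was 0.0289, but the fold (-0.22) was under the limit. The cotreated level exceeded that after cisplatin by 0.19 (95% interval 0.033 to 0.36, adjusted P = 0.138).

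Pdgfrb (ENSMUSG00000024620, chromosome 18, 61045150 to 61085061, + strand) showed the largest fall after cisplatin, from 24.0 ± 4.39 to 12.3 ± 5.03 CPM (log2 fold change -0.97 ± 0.23 SE, adjusted P = 0.00699). Vehicle tumors held 23.6, 17.4, 28.1, 27.9 and 22.8 CPM, and KW6002 tumors 30.1, 18.2, 21.4, 22.0 and 22.0. Cisplatin tumors split into replicates 1 to 3 at 9.91, 8.79 and 7.26 CPM and replicates 4 and 5 at 18.2 and 17.1, and replicate 4 alone of the 5 reached into the vehicle range. Cotreated tumors held 14.6, 13.2, 13.7, 10.7 and 18.8 CPM (log2 fold change -0.76 ± 0.22 SE, adjusted P = 0.0132). In the later code run the falls were -0.75 after cisplatin (adjusted P = 0.114) and -0.69 after cotreatment (adjusted P = 0.23), neither past the test. Against KW6002, cotreated tumors were lower by -0.68 (adjusted P = 0.0242), a call that was lost in 4 of 20 fits without 1 tumor (KW6002 replicate 1, cotreatment replicate 2, 3 or 4).

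Markers of vessel cells were lower in the same groups as Pdgfrb. The summed level of 8 pericyte markers ranged from 116.8 to 162 CPM in vehicle, 118 to 153 in KW6002, 59.8 to 73.6 in cisplatin and 61.3 to 81.9 in cotreated tumors, and 5 of the 8 fell after cisplatin (4.57% of all genes called lower) and 6 after cotreatment (10.4%). Rgs5 (-1.34, adjusted P = 3.94e-06) and Mcam (-0.93, adjusted P = 0.000209) are examples after cotreatment. For 8 markers of blood vessel endothelium the ranges were 155 to 230.1, 133 to 218, 77.0 to 105 and 83.8 to 125 CPM, with all 8 lower after cisplatin and 6 after cotreatment, among them Kdr (-1.09, adjusted P = 5.43e-06) and Cdh5 (-1.10, adjusted P = 4.01e-05). All pericyte and endothelial markers passed the filter. Acta2 and Tagln, also genes of mural cells, fell in the same tumors, and the part of vessel cells in these results was not tested. Pearson's r of deviations from group means over the 20 tumors had a median of 0.40 between Pdgfrb and the 8 pericyte markers, from -0.36 for Cspg4 to 0.91 for Kcnj8, with Rgs5 at 0.39 and Mcam at -0.0077, and a median of 0.39 with the endothelial markers. Kcnj8 was also the closest of 12739 genes, before Prss23 (0.86) and Ddhd1 (0.86).

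**Figure D3:**
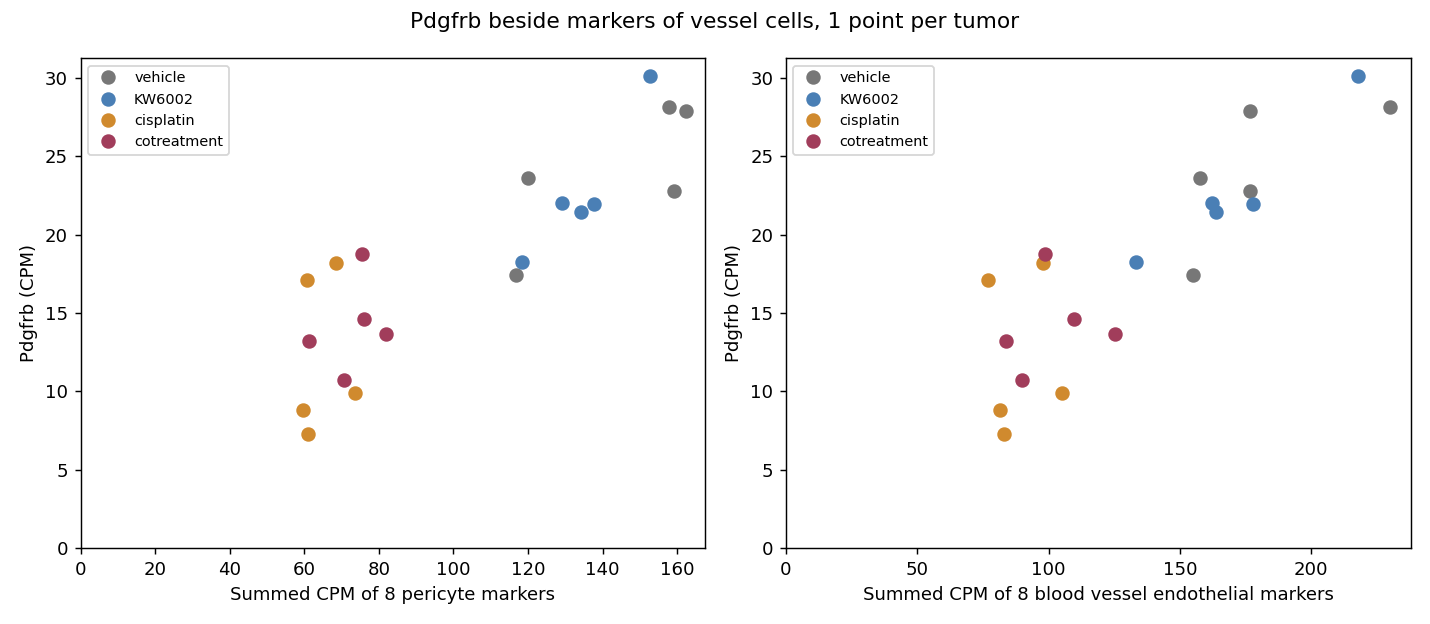
Pdgfrb in CPM (vertical axes) against the summed CPM of 8 pericyte markers (left) and of 8 markers of blood vessel endothelium (right), 1 point per tumor, colored by group. Vehicle and KW6002 tumors lie at 116.8 CPM or more of pericyte markers and all cisplatin and cotreated tumors at 81.9 or less, and cisplatin replicates 4 and 5, at 18.2 and 17.1 CPM of Pdgfrb, have pericyte sums of 68.4 and 60.8, within the 59.8 to 73.6 of replicates 1 to 3.

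All 4 ligands of these receptors were tested. Pdgfb, which recruits pericytes, fell after cisplatin (-1.23, adjusted P = 0.000337) and after cotreatment (-1.32, adjusted P = 4.44e-05), from 14.9 ± 2.82 CPM in vehicle to 5.96 ± 1.94 in cotreated tumors. Pdgfa fell after cotreatment (-0.32, adjusted P = 0.00532) and Pdgfc rose (0.62, adjusted P = 4.80e-07). The ligands thus counted 1 lower after cisplatin, and 2 lower and 1 higher after cotreatment, beside 4.57% of all genes lower after cisplatin, and 10.4% lower and 13.1% higher after cotreatment.

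Fap, the fibroblast activation protein (ENSMUSG00000000392, chromosome 2, 62500943 to 62574075, - strand), was the 1 member that rose after cotreatment. Its levels were 20.2, 19.9, 23.8, 15.4 and 14.54 CPM in vehicle and 20.6, 14.1, 20.3, 18.1 and 15.4 in KW6002 tumors. Cisplatin tumors held 20.4, 20.4, 20.1, 27.9 and 23.5 CPM and cotreated tumors 29.6, 30.7, 28.6, 25.4 and 33.9. Every cotreated tumor was above every vehicle and every KW6002 tumor, while cisplatin replicate 4 lay inside the cotreated range. The rise over vehicle was 0.66 ± 0.13 SE (adjusted P = 0.000676) and that over KW6002 0.74 (adjusted P = 0.000234). Cisplatin alone gave 0.26 (95% interval -0.018 to 0.54, adjusted P = 0.192), and cotreatment exceeded cisplatin by 0.40 (adjusted P = 0.0754), which did not pass. DESeq2 put that last difference at adjusted P = 0.0343, and edgeR called it when cisplatin replicate 4 or cotreatment replicate 4 was left out. The interaction estimate of Fap was 0.48 (adjusted P = 0.292). In the later code run cotreatment gave 0.71 over vehicle (adjusted P = 0.0369).

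Thy1 (ENSMUSG00000032011, chromosome 9, 44043384 to 44048579, + strand) and Pdpn (ENSMUSG00000028583, chromosome 4, 143267431 to 143299564, - strand), the surface glycoproteins, passed the test in no comparison of the fit on all 20 tumors, and their spread between tumors was wide. The fit on the vehicle and cotreated tumors alone called Thy1 lower after cotreatment (adjusted P = 0.0323), and the earlier code run alone called Pdpn lower after cotreatment than after KW6002 (adjusted P = 0.00523). Thy1 held 26.2, 20.04, 23.3, 18.7 and 23.5 CPM in vehicle tumors and 13.6, 13.7, 14.3, 17.3 and 22.9 in cotreated tumors, and ranged from 13.3 to 32.3 in KW6002 tumors. In cisplatin tumors it held 10.2, 10.8, 15.3, 42.1 and 32.0, a coefficient of variation of 64.6% against 13.3% in vehicle. The fitted differences from vehicle were -0.017 after cisplatin (95% interval -0.73 to 0.70) and -0.45 after cotreatment (-1.17 to 0.27). Cisplatin replicates 4 and 5 thus exceeded every vehicle tumor, and replicates 1 to 3 lay below every vehicle tumor. Pdpn held 28.6, 15.8, 16.7, 30.7 and 25.5 CPM in vehicle, 14.2, 14.02, 20.5, 37.9 and 35.1 in cisplatin and 11.9, 13.1, 8.59, 20.04 and 26.2 in cotreated tumors, with a range of 19.3 to 29.97 under KW6002. Its differences from vehicle were 0.054 (-0.63 to 0.74) and -0.55 (-1.24 to 0.14), both with intervals that held 0. Cisplatin replicates 4 and 5 were again the highest. Both come from the later code run, as does cisplatin replicate 3, which held only 15.3 CPM of Thy1 and 20.5 of Pdpn. With the run as a term in the model Pdpn was 0.55 higher in later than in earlier tumors at an unadjusted P of 0.0169 (adjusted P = 0.301, edgeR). T cells also carry Thy1 in mice, and the summed level of 8 T cell markers was 1.54 to 36.6 CPM over the 20 tumors. In cisplatin tumors 1 to 5 it was 1.69, 2.21, 2.21, 8.86 and 4.82 CPM, highest where Thy1 was highest. The 36.6 CPM were in KW6002 replicate 1, which also had most Thy1 of its group. Among cotreated tumors the highest sum (4.06 CPM) was in replicate 1, which had least Thy1. The part of T cells in the level of Thy1 was not tested. Lymphatic endothelium carries Pdpn, and of its 5 markers Prox1, Reln and Mmrn1 did not pass the filter. The summed level of the 5, nearly all of it Lyve1 (mean 38.9 CPM after cisplatin, against 1.40 of Flt4), was 27.0, 29.5, 40.1, 50.9 and 54.99 CPM in cisplatin tumors 1 to 5, and 26.9, 36.1, 25.8, 40.5 and 63.7 in cotreated tumors. Those sums were highest in cisplatin replicates 4 and 5 and in cotreatment replicates 4 and 5, the tumors of each group with most Pdpn. Vehicle tumors ran the other way, with the lowest sum (19.9 CPM) in replicate 4, which had most Pdpn, and the highest (29.3 CPM) in replicate 2, which had least. Flt4, the other marker tested, fell where Lyve1 rose (-1.10 and 0.92 after cisplatin), and the part of lymphatic cells in the level of Pdpn was not tested.

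The neighboring genes Dcn (ENSMUSG00000019929, chromosome 10, 97479609 to 97518143, + strand) and Lum (ENSMUSG00000036446, chromosome 10, 97565128 to 97572703, + strand) lie 47.0 kb apart in the same direction, encode related small leucine-rich proteoglycans, and differed after treatment. Dcn (decorin) held 1168, 1435, 1207, 1196 and 1460.5 CPM in vehicle tumors and 1072, 1145, 1397, 1093 and 1213 in KW6002 tumors. Cisplatin tumors held 1318, 1112, 1138, 1393 and 1376 CPM and cotreated tumors 1534, 1439, 1523, 1397 and 1757. All cotreated tumors were above all cisplatin tumors and above all KW6002 tumors (at the closest, 1397.4 against 1396.8 CPM), while vehicle replicates 2 and 5 lay within the cotreated range. Dcn was higher after cotreatment than after KW6002 (log2 fold change 0.37 ± 0.090 SE, adjusted P = 0.00293). Its differences were 0.24 from vehicle (adjusted P = 0.0397, under the fold limit), 0.27 from cisplatin (adjusted P = 0.071) and -0.030 for cisplatin against vehicle (95% interval -0.22 to 0.16). Its interaction estimate was 0.40 (adjusted P = 0.189).

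Lum (lumican) was 889, 1053, 727, 876 and 970.5 CPM in vehicle tumors and 719.9, 829.7, 953, 844 and 924 in KW6002 tumors. Cisplatin tumors had 744, 639, 556, 523 and 449 CPM and cotreated tumors 696, 498, 622, 686 and 509. Cotreated tumors lay below all vehicle and KW6002 tumors, and cisplatin replicate 1 alone reached the vehicle range. Lum fell after cisplatin (log2 fold change -0.63 ± 0.13 SE, adjusted P = 0.00237) and after cotreatment (log2 fold change -0.58 ± 0.13 SE, adjusted P = 0.00142), and the cotreated group differed from the cisplatin group by 0.049 (95% interval -0.22 to 0.32). Both falls passed the test within the later code run as well (-0.81 and -0.58). The difference between the responses of Dcn and Lum was not itself tested.

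Postn (periostin, ENSMUSG00000027750, chromosome 3, 54361109 to 54391037, + strand), a matrix protein of remodeling stroma, varied most within groups. Vehicle tumors held 92.9, 77.8, 126, 67.8 and 106 CPM and KW6002 tumors 89.0, 25.6, 80.5, 69.5 and 76.9. Cisplatin tumors held 25.9, 60.9, 47.9, 119 and 80.6 CPM and cotreated tumors 55.1, 32.4, 52.0, 49.1 and 50.2. The cotreated tumors were all below the lowest vehicle tumor, whereas the cisplatin tumors spanned nearly the whole range of the series. Postn fell after cotreatment (log2 fold change -0.98 ± 0.35 SE, adjusted P = 0.0395), and after cisplatin its difference was -0.49 (95% interval -1.23 to 0.25). The cotreatment call was lost in 8 of 20 fits without 1 tumor (vehicle 1, 3 or 5, or any cotreated tumor), and with the code run as a term (adjusted P = 0.084). In the later run alone the value was -0.91 (adjusted P = 0.12).

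Other matrix genes were counted beside the members. Among 7 tested small leucine-rich proteoglycans beside Dcn and Lum (Fmod did not pass the filter), Podn rose after cisplatin (1.32, adjusted P = 0.0242) and after cotreatment (1.54, adjusted P = 0.00407), and Epyc fell after cotreatment (-1.56, adjusted P = 0.0259). Of the 10 collagen genes none was called after cisplatin and 4 after cotreatment, where 23.5% of all genes were. Col6a2 (0.68, adjusted P = 0.00686) and Col6a1 (0.59, adjusted P = 0.00737), chains of the microfibrillar type VI collagen, rose, and Col5a3 (-0.92, adjusted P = 0.000561) and Col6a3 (-0.43, adjusted P = 0.0079) fell. Of the 23 other fibroblast genes 3 rose and 1 fell after cisplatin (10.6% of all genes called), and 3 rose and 2 fell after cotreatment, a share near the 23.5% of all genes, with medians of 0.065 and -0.0040. S100a4, a calcium-binding protein found in fibroblasts and leukocytes (0.81, adjusted P = 2.45e-07), and Gsn, the actin-severing gelsolin (0.53, adjusted P = 8.70e-05), rose with cotreatment, and Mfap4, a microfibril protein (-1.46, adjusted P = 1.76e-06), and Lrrc15, a marker of myofibroblasts in tumors (-0.66, adjusted P = 0.00826), fell.

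Set tumor by tumor, the 10 genes did not move as one. The SD of log2 CPM within groups was 0.60 for Postn, 0.55 for Thy1, 0.54 for Pdpn and 0.38 for Pdgfrb, against 0.13 for Pdgfra, 0.15 for Dcn and 0.22 for Lum. The median over all genes tested was 0.18. The SD of every member was above the median of 500 genes of like level, which was 0.107 for Pdgfra and 0.109 for Dcn and for Lum. Deviations from group means were correlated for all 45 pairs of members over the 20 tumors, with P values from permutations within groups. After adjustment 4 pairs passed 0.05 by Pearson's r. They were Thy1 and Postn (r = 0.77, adjusted P = 0.0284, Spearman's rho = 0.69), Pdgfra and Lum (r = 0.71, adjusted P = 0.0284, rho = 0.61), Thy1 and Fap (r = 0.62, adjusted P = 0.0284, rho = 0.63), and Thy1 and Pdpn (r = 0.70, adjusted P = 0.0469, rho = 0.60). By Spearman's rho none passed, the lowest adjusted P being 0.0881. Without the 2 tumors farthest from the median of the first gene named, r was 0.62, 0.53, 0.55 and 0.58. Within the earlier and the later code run it was 0.69 and 0.79 for Thy1 and Postn, 0.84 and 0.59 for Pdgfra and Lum, 0.88 and 0.55 for Thy1 and Fap, and 0.54 and 0.67 for Thy1 and Pdpn. For Thy1 and Pdpn r was 0.88 in the 10 tumors given cisplatin and 0.056 in the 10 others. For Acta2 and Tagln it was 0.046 with cisplatin and 0.79 without, differences that were not tested (r = 0.55 over all 20, adjusted P = 0.118, rho = 0.58).

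**Figure D4:**
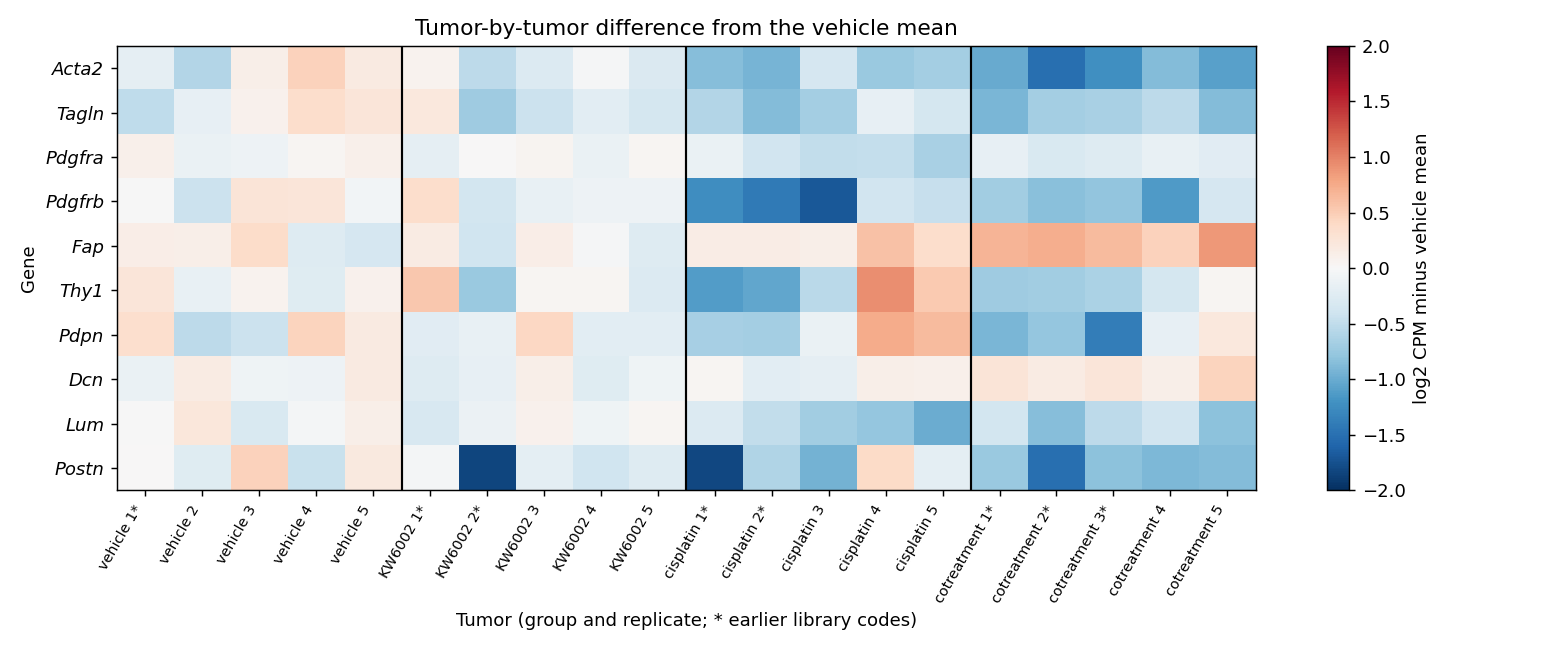
Difference of log2 CPM from the vehicle mean (color, from -2 to 2) for the 10 genes (rows) in the 20 tumors (columns, grouped; an asterisk marks earlier library codes). Acta2 and Tagln are low along the cisplatin and cotreated columns, and Thy1 and Pdpn are high in cisplatin replicates 4 and 5 and low in replicates 1 and 2.

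The members also differed in how they followed other fibroblast genes. Thy1 had a median r of 0.60 with the 23 other fibroblast genes and 0.81 with the 10 collagens. Among the 23 genes its r ran from -0.83 (Vcan) to 0.97 (Fbln2), over 0.5 in 13 and under -0.5 in 3. Postn (0.41 and 0.63), Pdpn (0.53 and 0.49), Pdgfrb (0.34 and 0.62) and Fap (0.34 and 0.61) also had positive medians. The medians of Lum (-0.32 and -0.54) and Pdgfra (-0.27 and -0.45) were negative with both lists. Among the 23 genes, r was under -0.5 in 9 for Lum and in 7 for Pdgfra. It was over 0.5 in 3 for each, up to 0.79 for Lum (Fbn1) and 0.70 for Pdgfra (Mfap4). Dcn (0.26 and 0.33), Tagln (0.31 and 0.36) and Acta2 (0.11 and 0.11) lay between. The values describe these 20 tumors, whose genes share library and scaling, and no test was made of them. With 8 T cell markers the median r was 0.70 for Thy1, 0.66 for Postn, 0.59 for Fap and 0.47 for Pdgfrb. It was 0.385 for Tagln, 0.13 for Acta2, 0.082 for Pdpn, -0.0040 for Dcn, -0.23 for Lum and -0.495 for Pdgfra. The T cell markers were low, with group means from 0.063 CPM (Cd5, cotreatment) to 2.87 CPM (Lck, KW6002). Their sum was 36.6 CPM in KW6002 replicate 1 and at most 12.8 CPM in any other tumor. Values of r without that tumor are not given here.

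**Figure D5:**
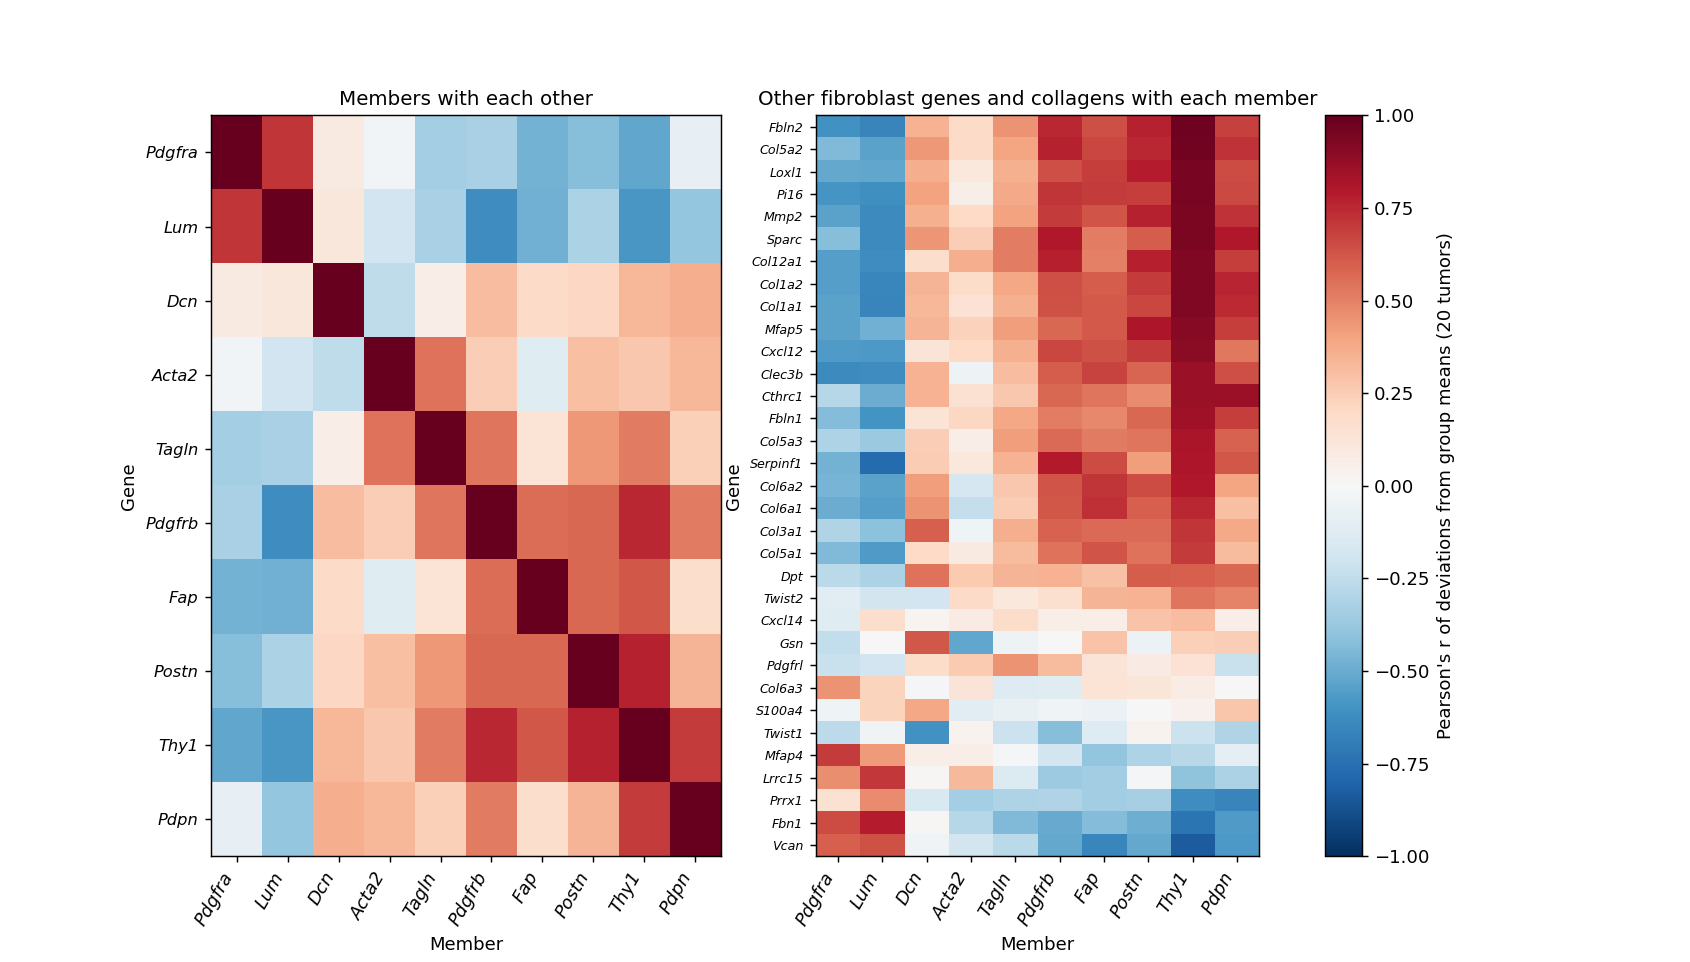
Pearson's r of deviations from group means over 20 tumors (color, from -1 to 1) between the members (left) and between each member and 33 other fibroblast and collagen genes (right, ordered by r with Thy1). Pdgfra and Lum are blue against most genes with which Thy1, Postn, Pdgfrb, Fap and Pdpn are red.

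The genes closest to each member were sought among 12739 genes of at least 50 mean counts, by the same measure. Thy1 was followed most closely by Pla1a (r = 0.98) and Fbln2 (0.97), which encodes the matrix protein fibulin 2. Pdpn had Gnptg (0.95), Olfml3 (0.93) and Folr2 (0.92), the last a folate receptor of macrophages. Fap had Sdc1 (0.92), the proteoglycan syndecan 1, Scara3 (0.84) and Wdr74 (0.82). Postn had Col27a1 (0.86), Pcsk5 (0.86) and Cdh11 (0.86), a cadherin of mesenchymal cells. Lum had Gm38248 (0.87), Jpx (0.86) and Dst (0.85), and Pdgfra had Map3k13 (0.85), Cyfip1 (0.84) and Dhx32 (0.79). Tagln had Ldb2 (0.86), Cd200 (0.78) and Esm1 (0.78), the last a gene of endothelial cells. The closest to Dcn were Drc3 (0.81), Glt8d1 (0.76) and Tmem35b (0.74), and to Acta2 Hspd1 (0.75), Gm15879 (0.75) and Commd6 (0.75). These are the highest of many values and carry no test.

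Signals and states tied to fibroblasts were counted from lists of genes, to be read against the 10.6% of all genes called after cisplatin and the 23.5% after cotreatment. Of 12 ligands, receptors and targets of TGF-beta, which drives myofibroblasts, 1 fell after cisplatin, and 5 fell and 3 rose after cotreatment. Tgfb3 (-0.99, adjusted P = 1.73e-06) and Smad7, an inhibitor that the pathway induces (-0.70, adjusted P = 0.00066), fell, and the coreceptor Tgfbr3 (0.64, adjusted P = 2.11e-06) and the ligand Tgfb2 (0.87, adjusted P = 0.0003) rose. Of 10 genes of inflammatory fibroblasts 1 fell after cisplatin and 5 after cotreatment, median -0.78, with the hyaluronan synthase Has2 (-1.43, adjusted P = 3.82e-07) and the chemokine Ccl2 (-1.03, adjusted P = 0.000183) in front. Of 6 genes of antigen-presenting fibroblasts, 1 rose after cisplatin, and 3 fell and 1 rose after cotreatment. Msln, encoding mesothelin, was the gene that rose (1.98, adjusted P = 1.82e-05), and Slpi, a protease inhibitor (-1.31, adjusted P = 0.00579), and H2-Ab1, a chain of MHC class II (-1.25, adjusted P = 0.0391), fell. Leukocytes carry many of the same genes.

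Other cells of the tumor gave these values beside the members, in a comparison of cotreatment with vehicle that called 23.5% of all genes. Macrophage markers summed to at most 2314 CPM, in the cisplatin group, and after cotreatment Mrc1 (0.46, adjusted P = 0.0232) and Cd163 (0.96, adjusted P = 0.0397) rose and Csf1r (-0.32, adjusted P = 0.0334) fell. Neutrophil markers fell in 4 of 6 genes after cotreatment, S100a9 (-2.85, adjusted P = 0.00201) and Cxcr2 (-1.78, adjusted P = 0.00243) leading. Of 8 T cell markers 2 fell, Trac (-2.04, adjusted P = 0.0317) and Cd5 (-2.76, adjusted P = 0.0344). Both were near the floor, Trac going from a mean of 0.83 to 0.19 CPM and Cd5 from 0.45 to 0.063. Of 2 tested lymphatic genes Lyve1 rose (0.82, adjusted P = 0.0247) and Flt4 fell (-0.85, adjusted P = 0.0172). Among simple epithelial genes Krt8 (0.57, adjusted P = 3.12e-05) and Krt7 (1.64, adjusted P = 0.00106) rose, Epcam and Cldn4 not passing the filter. Krt7 was also near the floor, at means of 0.22 CPM in vehicle and 0.67 in cotreated tumors. Of 4 tested Schwann cell genes Mbp rose (0.48, adjusted P = 0.000276) and S100b fell (-1.02, adjusted P = 0.0212), the latter from a mean of only 0.34 to 0.17 CPM. Skeletal muscle markers summed to 3.90 CPM in 1 cotreated tumor and 1172 in another, with Actn3 called higher (5.07, adjusted P = 0.0319), and fat markers reached 346 CPM in vehicle replicate 2, where Acta2 and Pdgfrb were the lowest of their group, and 165 CPM in KW6002 replicate 1, where both were the highest of theirs. Skin epidermis and fat had no gene called after cotreatment. The part of these cells in the members' levels was not tested.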

How the data were processed

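Raw read counts for each Ensembl gene were deposited by the authors for 20 LLC1 tumors. Per the labels and the study's methods, stranded poly(A) libraries were sequenced as single-end reads, demultiplexed with bcl2fastq 2.17.1.14, aligned to mm10 with STAR and counted with HTSeq 0.6.1p1 in union mode from uniquely aligned reads. The strand option of the counting is not given in the sources used here. Groups came from the sample titles, and an earlier and a later run of library codes from the descriptions (1, 2, 2 and 3 earlier vehicle, KW6002, cisplatin and cotreated tumors, and 4, 3, 3 and 2 later ones). Symbols and positions were taken from GENCODE M21 (GRCm38).

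Genes were filtered with filterByExpr by group, scaled by TMM and tested in edgeR 4.0.16 (R 4.3.3) with a robust two-sided quasi-likelihood test over 4 group means, P values being adjusted over all 16665 genes tested (99.9% of counts). CPM used TMM-scaled libraries, and log2 CPM a prior count of 2. SEs were the log2 fold change over the root of F. The common biological coefficient of variation was 0.163. Correlations used 100000 permutations within groups. The code was tested on simulated data. Reads carried no molecular identifiers, and depth limits precision by counting error only. Alternatives were DESeq2 1.42.0, relative log expression (RLE) scaling, no filter, no fold limit, the code run as a term, each run alone, a replicate block, only the 2 groups compared, and each tumor left out.

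All 10 members were described. From each of the 19 other lists up to 2 genes that rose and 2 that fell with the smallest adjusted P values in cotreatment against vehicle were named, and for each member the 3 genes of highest r, 1 of which is not reported here. Other genes are marked as picked after their values were seen. The members and lists were chosen with earlier results of these data known, and the search for CArG letters was added after seeing the data.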

Additional observations from a re-analysis of the deposited data

Results flagged for a closer look

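In 40 groups of 5 tumors (10 genes in 4 groups), 2 held a tumor that stood far from the other 4 by Dixon's test at the 95% level, and chance alone gives about 1 in 20 groups. For Pdpn, KW6002 replicate 3 held 29.97 CPM and the other KW6002 tumors 19.3 to 20.3, so its gap made up 0.91 of the whole range of the group. The summed level of 5 lymphatic markers, nearly all of it Lyve1 and 3 of them under the filter, was also highest in that tumor, at 37.4 CPM against 21.7 to 25.5 in the other KW6002 tumors. In the vehicle group that sum was lowest (19.9 CPM) in replicate 4, which had most Pdpn, and highest (29.3 CPM) in replicate 2, which had least, and the part of lymphatic cells was not tested. For Postn, cotreatment replicate 2 held 32.4 CPM and the other cotreated tumors 49.1 to 55.1, a gap of 0.74 of the range. Neither tumor stood apart in another member by this test.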

How the results depend on the processing

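No result past the test changed direction under any alternative tried. The counts of members called in edgeR stayed within 1.5 times of those reported in all but these cases. Cotreatment against cisplatin went from 0 to 1 member with a replicate block (Acta2, adjusted P = 0.0421) and to 1 in DESeq2 (Fap, adjusted P = 0.0343), and leaving out 1 tumor gave 0 to 1. Cotreatment against KW6002 went from 6 to 1 (Lum) in the later code run, which has 3 KW6002 and 2 cotreated tumors, and leaving out 1 tumor gave 4 to 6. The earlier run alone gave 5 there, without Lum and Tagln and with Pdpn. Leaving out 1 tumor gave 4 to 5 members for cisplatin and 5 to 6 for cotreatment against vehicle, and Tagln lost its call against KW6002 in 14 of 20 such fits. The fit without a filter lost Postn after cotreatment, and Pdgfrb and Tagln against KW6002, and the run term lost Postn after cotreatment and Tagln against KW6002. The fit on the 2 groups alone lost Tagln after cisplatin and gained Thy1 after cotreatment.

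Same-numbered tumors deviated together (r over 0.1) in 12 of 30 pairs of groups and numbers, from -0.39 to 0.39. The best match of a tumor in another group had its number in 9 of 60 cases, so over all groups the numbers give no pairing. Between cisplatin and cotreatment, where the block called Acta2, r was 0.157, 0.226, 0.193, -0.163 and 0.186 for numbers 1 to 5. The replicate block changed no other call of a member.

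Values that changed sign were all small or wide and had not passed the test. For KW6002 against vehicle they were Thy1 with the code run as a term (0.052), and Pdgfra (0.020), Thy1 (0.0021), Lum (0.0094) and Pdpn (0.065) in the later run. For cisplatin against vehicle they were Pdpn with the replicate block (-0.014) and Thy1 in the later run (0.49). In the later run Pdpn was 0.084 after cotreatment against vehicle and 0.019 against KW6002. In the earlier run cotreatment against cisplatin gave 0.41 for Thy1, -0.19 for Lum and 0.098 for Postn. The interaction of Postn was 0.041 with the run term and 0.035 with the replicate block.

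Leaving out 1 tumor moved Dcn (-0.058 to 0.026), Pdpn (-0.15 to 0.21) and Thy1 (-0.38 to 0.17) across 0 for cisplatin against vehicle, and Fap (-0.16 to 0.019), Pdgfrb (-0.20 to 0.0010), Pdpn (-0.25 to 0.0066) and Thy1 (-0.21 to 0.11) for KW6002 against vehicle. It did the same to Lum for cotreatment against cisplatin (-0.029 to 0.15) and to the interactions of Postn (-0.24 to 0.28) and Tagln (-0.015 to 0.24). The causes were not tested. Counts over all genes moved by over 1.5 times in these fits: the later run (2743 for 1762 after cisplatin, 2209 for 3914 after cotreatment, 1 for 667 against cisplatin, 1654 for 3884 against KW6002), cotreatment against cisplatin (667) in the earlier run (287), on the 2 groups alone (217) and without cotreatment replicate 2 (289), cotreatment replicate 3 (295), cisplatin replicate 3 (396) or cotreatment replicate 4 (1013), and the interaction (11, with 21 without a filter, 17 with the run term, 0 with the replicate block, 263 in DESeq2 and 0 to 229 on leaving out 1 tumor).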
